A study of Homo sapiens with 8 samples.

Results

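The genes of collagen, laminin and integrin chains were followed in HCT-116, which is a human line from a colorectal carcinoma, over 4 groups of 2 arrays each. They were chosen by a rule on gene names only, set with earlier results of these data known. It took all probes whose gene name begins with a numbered COL, LAMA, LAMB or LAMC chain. It also took ITGA followed by a number or by D, E, L, M, V or X, and ITGB followed by 1 digit only. This gave 132 of the 50599 probes on the array, which carry 86 gene names. The groups were untreated parental cells (WT), parental cells given 20 µM NU6102 for 24 h (WT+NU6102), cells in which CDK2 had been knocked out (CDK2 KO) and R50 cells, which resist NU6102 and were kept in 50 µM of it. NU6102 is a purine that inhibits the kinases CDK1 and CDK2. All lines share the HCT-116 background and grew in serum. R50 was raised from colonies that survived the inhibitor, and the sources used here do not say whether the CDK2 KO line is 1 clone or whether the 2 arrays of a group came from separate cultures. P-values therefore measure only the spread between those arrays, which may be technical.

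Collagens are triple helices of alpha chains that form fibrils, networks or anchoring structures outside the cell. Laminins are heterotrimers of an alpha, a beta and a gamma chain and form the sheet of the basement membrane on which epithelia rest, together with the type IV collagen network. Integrins are the alpha-beta heterodimers that bind both, and in epithelia ITGA6 with ITGB4 holds the cell to laminin-332 in hemidesmosomes while ITGA1 or ITGA2 with ITGB1 binds collagen.

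The promoters of COL4A5 and COL4A6 are shown because these genes stand head to head on the X chromosome and both rose in CDK2 KO cells. Their RefSeq starts on GRCh38.p14 lie 380 bases apart, with COL4A5 reading along the plus strand and COL4A6 along the minus strand. Each window below runs from 250 bases before the start and 50 bases on from it, 5′ to 3′ on the gene's own strand, at chrX:108439588-108439887 for COL4A5 and at chrX:108439409-108439708 for COL4A6. Capitals mark the 121 bases that both windows hold, read on opposite strands.
COL4A5: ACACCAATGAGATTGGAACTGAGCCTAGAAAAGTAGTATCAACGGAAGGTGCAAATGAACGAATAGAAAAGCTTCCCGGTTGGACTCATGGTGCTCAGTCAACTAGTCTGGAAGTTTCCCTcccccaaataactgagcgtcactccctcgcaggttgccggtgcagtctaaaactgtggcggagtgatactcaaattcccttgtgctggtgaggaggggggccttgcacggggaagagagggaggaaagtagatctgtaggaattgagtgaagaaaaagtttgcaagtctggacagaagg
COL4A6: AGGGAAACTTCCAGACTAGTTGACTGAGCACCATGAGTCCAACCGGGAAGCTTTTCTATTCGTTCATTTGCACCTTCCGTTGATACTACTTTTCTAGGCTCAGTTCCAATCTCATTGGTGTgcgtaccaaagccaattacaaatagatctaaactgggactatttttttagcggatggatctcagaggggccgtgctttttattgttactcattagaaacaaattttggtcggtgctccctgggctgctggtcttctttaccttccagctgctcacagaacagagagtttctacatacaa
The shared stretch holds CCAAT 2 times, counting both strands, a motif present in 34.6% of the 34943 promoter windows in the RefSeq table. RefSeq lists a second COL4A6 start, 1416 bases from that of COL4A5, whose window is not shown.

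The promoters of LAMB3 and COL12A1 are shown because these were among the genes of largest rise in R50 and in CDK2 KO cells. The LAMB3 window is that of 1 of 3 listed starts, at chr1:209652376-209652675 on the minus strand, and the COL12A1 window is at chr6:75206004-75206303 on the minus strand. Capitals mark the motif GGGCGG on either strand, the core of a GC box.
LAMB3: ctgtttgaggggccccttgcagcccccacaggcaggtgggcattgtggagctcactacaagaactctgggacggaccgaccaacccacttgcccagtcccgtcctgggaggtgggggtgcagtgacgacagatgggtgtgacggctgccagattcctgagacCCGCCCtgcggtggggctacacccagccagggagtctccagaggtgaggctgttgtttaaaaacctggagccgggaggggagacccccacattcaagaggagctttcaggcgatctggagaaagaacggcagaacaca
COL12A1: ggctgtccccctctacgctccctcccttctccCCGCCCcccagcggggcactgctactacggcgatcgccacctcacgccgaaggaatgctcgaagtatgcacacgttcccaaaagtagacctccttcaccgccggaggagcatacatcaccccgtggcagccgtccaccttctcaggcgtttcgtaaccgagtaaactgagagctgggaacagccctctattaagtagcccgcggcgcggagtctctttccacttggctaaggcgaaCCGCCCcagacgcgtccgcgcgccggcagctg
It occurs 1 time in the LAMB3 window and 2 times in that of COL12A1, and in 44.9% of all windows. The AP-1 motif TGANTCA, held by 7.72% of all windows, and the TATA box letters TATAAA, held by 11.6%, are in none of the 4 shown. The window of another LAMB3 start, at chr1:209651325-209651624 and not shown, holds TGANTCA 1 time. Of the 86 names, 58 had a window in the table. These matches describe the letters only.

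A probe's signal is given below as log2 of the background-subtracted scanner signal minus the 75th percentile of its array, so that 0 is a bright probe. The dimmest probes well above background on each array read between -5.30 and -4.67. Probes differ in how they bind, so that levels are compared between groups and never between genes. Testing was limited to probes that stood well above background in 2 of 2 arrays of some group, 28677 in all and 79 of the 132, naming 57 genes. It was called where limma gave a Benjamini-Hochberg adjusted p below 0.05 over all tested probes and a log2 fold change of at least 1 in size. CDK2 KO and R50 were hybridized on slide 1 and WT and WT+NU6102 on slide 2. The effect of NU6102 in WT cells and the difference of R50 from CDK2 KO were therefore measured within a slide. For the remaining 3 comparisons the slide changed with the group, and they cannot be told apart. In bulk RNA, fewer cells carrying a transcript and less of it per cell cannot be told apart either.

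The CDK2 probe read -0.78 and -0.77 in WT and -1.58 and -1.53 in CDK2 KO cells, a log2 fold change of -0.78 ± 0.04 (SE) with adjusted p = 0.000271, and its place relative to the deletion is not given in the sources used here. Of the 8 epithelial markers, EPCAM, CDH1, KRT8, KRT18, KRT19 and ELF3 stood well above background on every one of the 8 arrays, and VIL1 and CEACAM5 on none. Of the 9 fibroblast markers, COL1A1 and ACTA2 were above background on all 8 arrays, DCN on 1, and PDGFRA, PDGFRB, LUM, FAP, THY1 and COL3A1 on none. Of the leukocyte markers PTPRC, CD14, CD68 and ITGB2 were so on all 8 arrays and LCP2 on none. Of the endothelial markers CDH5 and VWF were so on all 8 arrays and KDR and TEK on none. Each marker was read by its brightest probe. The other ITGB2 probes, at chr21:46305926-46305985 and chr21:46321625-46326865 of hg19, were well above background on no array.

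The 57 measured genes made up an incomplete set of chains. COL1A1 was above background on all 8 arrays, but COL1A2, which joins it in the type I heterotrimer, and COL3A1 were so on none. Of the type IV chains COL4A2, COL4A4, COL4A5 and COL4A6 were measured, while COL4A1, the usual partner of COL4A2, was above background on 2 arrays only and COL4A3 on none. LAMA1 and LAMB4 were so on none. Of the integrins ITGB3, ITGB6, ITGA4, ITGA8 and ITGAL were well above background on no array. ITGAM was left out because 3 arrays held no usable spot of it. The rule also took in COL4A3BP, which encodes a ceramide carrier and not a collagen, the antisense gene COL18A1-AS1, and the pseudogenes LAMB2P1, COL6A4P1 and COL6A4P2.

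R50 cells held the clearest shift of the group against WT. Of the 79 probes 12 (15.2%) were called higher in R50 than in WT and 0 lower, where 1.64% of all tested probes were called higher and 0.952% lower. The probes that rose were those of LAMB2, LAMB3, LAMA4, ITGB4, ITGB7, ITGA1, COL6A1, COL9A3 and COL11A2. The median log2 fold change was 0.26 over the 79 probes and -0.04 over all probes. Of the 6 measured epithelial markers, CDH1, ELF3, KRT8, KRT18 and KRT19 were also higher in R50, by 0.60 to 0.96 on the log2 scale, and EPCAM was at 0.02. They moved in the other groups too, with ELF3 at -1.45, CDH1 at -0.37, KRT19 at -0.30, KRT8 at 0.65, KRT18 at 0.46 and EPCAM at 0.40 in WT+NU6102, and with values between 0.06 and 0.64 in CDK2 KO. Their part in the results was not tested. CDK2 KO cells had 8 probes higher (10.1%) and 1 lower (1.27%) than WT, against 2.44% and 2.3% of all probes. The called genes were COL12A1, COL17A1, COL1A1, COL4A5, COL4A6, ITGA1 and LAMA3 on the higher side and ITGB8 on the lower, and the medians were 0.11 over the 79 probes and 0.01 over all. In WT+NU6102 against WT 0 probes were called higher and 7 (8.86%) lower, against 1.27% and 5.22% of all probes. The lower probes were those of COL4A4, COL4A6, COL9A2, COL24A1, ITGB8, LAMA4 and LAMA5, and the medians were -0.09 over the 79 probes and 0.03 over all. This split depended on scaling: with each array's median subtracted the calls were 3 higher and 4 lower, and after quantile normalization 2 higher and 5 lower. The probes called higher with the median subtracted were those of COL12A1, ITGA1 and COL28A1, each at 1.12, and the median of all probes moved from 0.03 to 0.15. By class, represented by each gene's brightest probe, 2 of 3 laminin beta chains and 2 of 6 integrin betas were called higher in R50. In CDK2 KO 2 of 5 basement membrane collagens were called higher, the same number of which were called lower in WT+NU6102. The 3 laminin-binding integrin alphas and the 3 integrin alphas that bind RGD sequences held no call against WT in any group. With 3 genes each, this does not set them apart from all probes, of which at most 5.22% were called in 1 direction. Below the fold threshold but with adjusted p below 0.05, ITGA3 and ITGA6 were at 0.61 and 0.56 in R50 and ITGA7 at -0.80 in WT+NU6102.

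**Figure D1:**
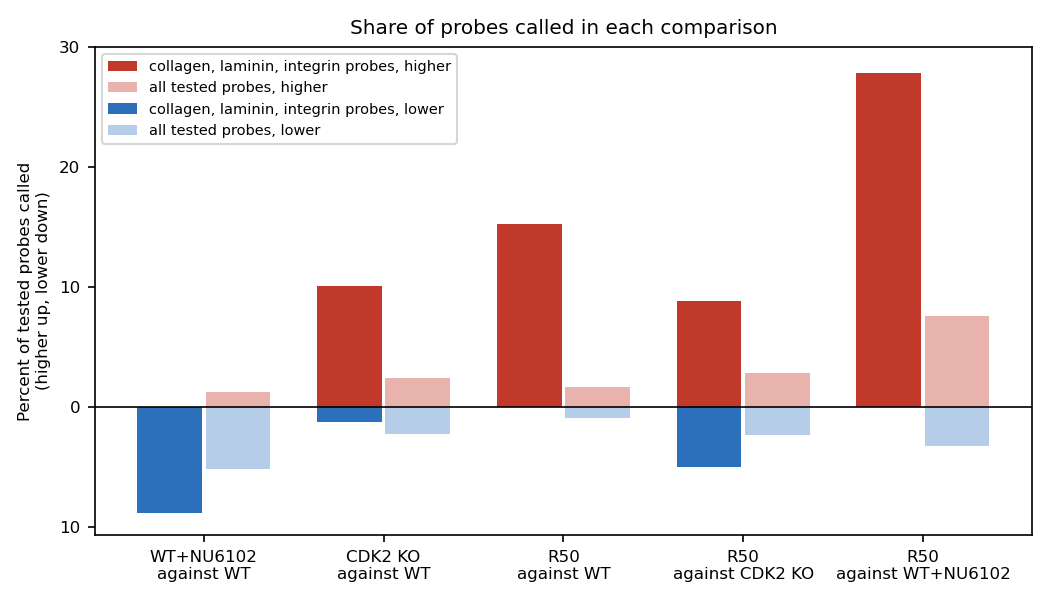
Percent of tested probes called in each of 5 comparisons (vertical axis, higher above the line and lower below it), for the 79 collagen, laminin and integrin probes (dark bars) and for all 28677 tested probes (pale bars). The share called higher is 15.2% in R50 against WT and 27.8% in R50 against WT+NU6102, where all probes give 1.64% and 7.61%.

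Within slide 1, R50 had 7 probes higher (8.86%) and 4 lower (5.06%) than CDK2 KO, against 2.85% and 2.36% of all probes. Those higher were COL9A3, ITGB7, ITGB8, LAMB3 and 3 LAMA4 probes, and those lower were COL12A1 by both its probes, COL4A5 and COL4A6. In R50 against WT+NU6102, which set cells in 50 µM against cells given 20 µM for 24 h, 22 probes (27.8%) were called higher and 0 lower, against 7.61% and 3.26% of all probes. The medians there were 0.47 and -0.05. By the F-test over the 4 groups at an adjusted p below 0.001, 35 of the 79 probes (44.3%) differed, against 21.1% of all probes. With any 1 array left out the count was 9 to 17, in a fit with fewer arrays and with no share over all probes computed. These comparisons share control arrays, so that they are not independent of each other.

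Among the laminins, LAMB3 and LAMA3, which join in laminin-332, the laminin that anchors epithelia, were highest in different groups. LAMB3, the beta chain, read 1.72 and 1.62 in WT, 1.64 and 1.61 in WT+NU6102, 1.88 and 1.95 in CDK2 KO and 3.24 and 3.15 in R50. Both R50 arrays stood far above the other 6, and LAMB3 was 2.88-fold higher in R50 than in WT (log2 fold change 1.52 ± 0.06, adjusted p = 0.000281) and 2.42-fold higher than in CDK2 KO on the same slide (adjusted p = 0.000146). Its probe lies at chr1:209788356-209788415 of hg19. LAMA3, the alpha chain, read -1.73 and -1.50 in WT, -1.05 and -1.17 in WT+NU6102, -0.48 and -0.45 in CDK2 KO and -1.26 and -1.24 in R50. It was highest in CDK2 KO, 2.23-fold over WT (log2 fold change 1.16 ± 0.09, adjusted p = 0.00065), with WT the lowest and WT+NU6102 and R50 in between, at 0.51 and 0.37 above WT. That rise was seen by the probe at chr18:21534735-21534794 of hg19, while a dimmer LAMA3 probe at chr18:21375992-21376051 gave 0.08 (adjusted p = 0.657), and the mean of both gave 0.62, which was not called.

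Of the chains of laminin-511 and laminin-521, the widespread basement membrane forms, LAMB2 was called higher in R50 by both of its probes. The brighter, at chr3:49158584-49158643, read 2.39 and 2.56 in WT, 2.77 and 2.74 in WT+NU6102, 3.31 and 3.39 in CDK2 KO and 3.73 and 3.69 in R50. The 4 groups did not overlap, and the log2 fold change against WT was 1.24 ± 0.07 in R50 (adjusted p = 0.000562) and 0.88 in CDK2 KO (adjusted p = 0.000754), below the fold threshold. The second LAMB2 probe gave 1.27 in R50 and 0.81 in CDK2 KO. LAMB1, the other beta chain, was at -0.33 in R50 (adjusted p = 0.022) by its brighter probe and 0.04 (adjusted p = 0.77) by the other, and LAMC1 had log2 fold changes between 0.06 and 0.11 against WT. For LAMA5, the alpha chain of both, the probes disagreed. The very bright one at chr20:60920556-60920615 lay between 6.07 and 6.32 on all 8 arrays. The one at chr20:60885302-60885361 read -0.48 and -0.57 in WT, -1.48 and -1.67 in WT+NU6102, -0.26 and -0.25 in CDK2 KO and 0.23 and 0.18 in R50. By it LAMA5 fell by 1.05 ± 0.08 on the log2 scale in WT+NU6102 (adjusted p = 0.00036) and was at 0.73 in R50 (adjusted p = 0.00341), below the fold threshold. Without WT+NU6102 replicate 2 that fall was 0.96.

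LAMC3, a gamma chain, behaved alike by both tested probes, at 0.66 and 0.65 in CDK2 KO and at -0.54 and -0.62 in WT+NU6102, all below the fold threshold. LAMA2, the alpha chain of laminin-211, was at 0.83 in CDK2 KO (adjusted p = 0.00043) and 0.30 in R50.

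**Figure D2:**
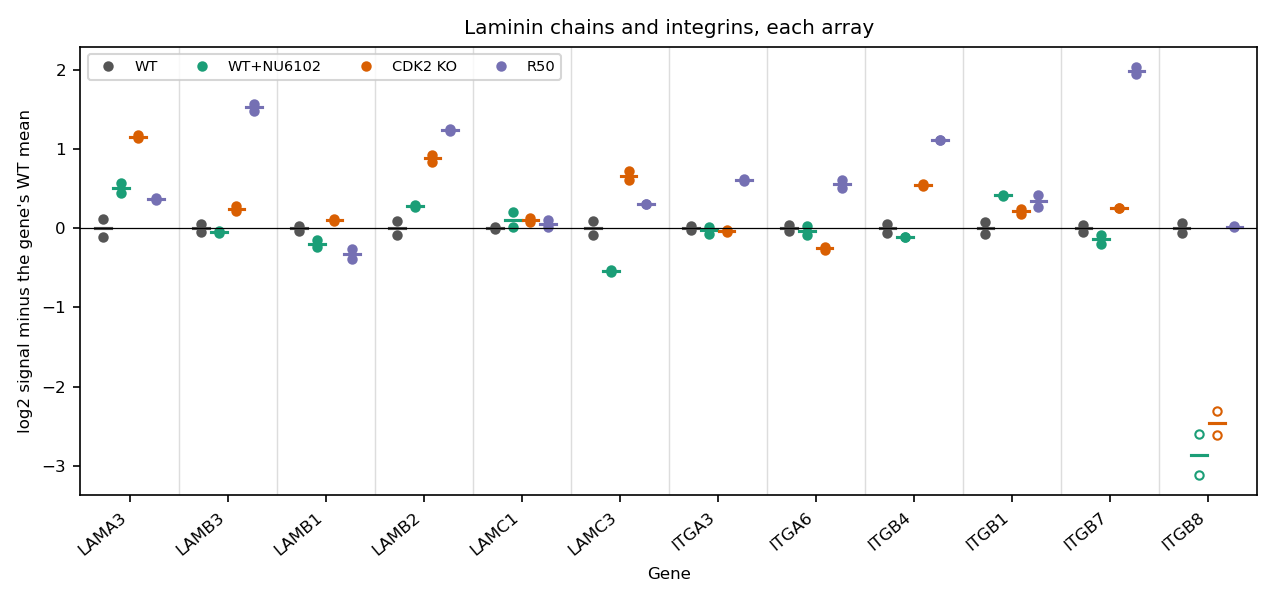
Log2 signal of each array minus the WT mean of the gene (vertical axis) for 6 laminin chains and 6 integrins, each by its brightest tested probe. Dots are single arrays, bars are means of 2, and open dots mark groups in which neither array was well above background. LAMB3, ITGB7 and ITGB4 stand apart in R50, LAMA3 is highest in CDK2 KO, and ITGB8 is low in WT+NU6102 and CDK2 KO.

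LAMA4, the alpha chain of laminin-411, had 4 tested probes, which fell into 1 that was flat and 3 that rose in R50. The flat probe, at chr6:112429141-112429200 of hg19, lies nearest the 3′ end of the gene, which reads along the minus strand. It was the brightest by mean over all arrays, stayed between -2.81 and -2.35, and gave -0.07 in R50 against WT (adjusted p = 0.699). The other 3 lie 77.3, 108.4 and 145.8 kb upstream of it. The first of these read -2.87 and -2.98 in WT, -3.75 and -3.30 in WT+NU6102, -3.08 and -3.16 in CDK2 KO and -1.20 and -1.23 in R50. R50 stood above all other arrays on each of the 3, with rises over WT of 1.71 ± 0.15 (adjusted p = 0.00187), 1.47 ± 0.08 (adjusted p = 0.000432) and 1.83 ± 0.21 (adjusted p = 0.00418). On the same slide R50 exceeded CDK2 KO by 1.91, 1.73 and 2.28. The 60 bases of the probes 108.4 and 77.3 kb upstream are shown, since they carry the rise. They lie at chr6:112537570-112537629 and chr6:112506440-112506499 and are written on the transcript's strand.
LAMA4, 108.4 kb upstream: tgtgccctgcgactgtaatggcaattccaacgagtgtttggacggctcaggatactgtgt
LAMA4, 77.3 kb upstream: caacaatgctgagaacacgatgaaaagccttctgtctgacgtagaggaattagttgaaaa
The probe 145.8 kb upstream was the only one called in WT+NU6102, at -1.14 ± 0.21 (adjusted p = 0.00696) with 1 of the 2 treated arrays well above background. Without WT+NU6102 replicate 1 it gave -0.83. The mean of the 4 probes was at 1.24 in R50, which was still called, and at -0.56 in WT+NU6102, which was not.

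**Figure D3:**
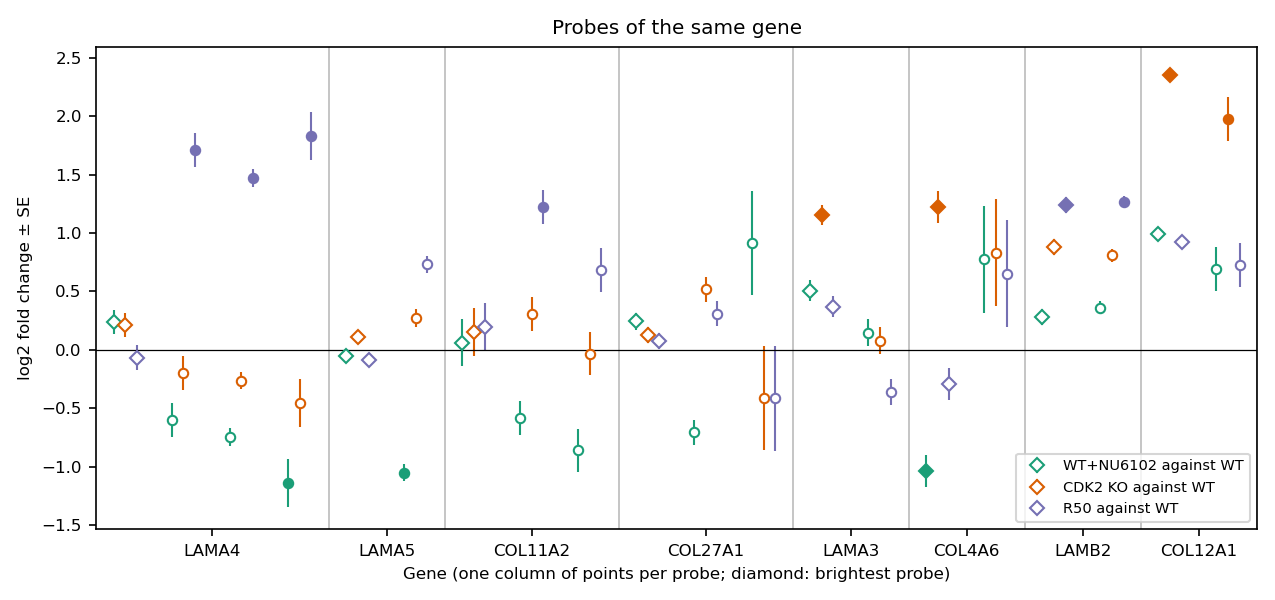
Log2 fold change against WT with its SE (vertical axis) for every tested probe of 8 genes, in WT+NU6102, CDK2 KO and R50. Diamonds are the brightest probe of a gene, circles the others, and filled symbols are called. The R50 values of LAMA4 are close to 0 for the brightest probe and between 1.47 and 1.83 for the other 3, while both probes of LAMB2 and of COL12A1 lie together.

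Type IV collagen, the network former of basement membranes, differed by chain. COL4A5 read -0.67 and -0.54 in WT, -1.21 and -1.46 in WT+NU6102, 1.25 and 1.19 in CDK2 KO and -0.05 and -0.23 in R50. The groups did not overlap, with CDK2 KO on top at 3.54-fold over WT (log2 fold change 1.82 ± 0.11, adjusted p = 0.000321). COL4A6, whose start faces that of COL4A5 across the shared stretch shown above, read -2.25 and -2.35 in WT, -3.54 and -3.13 in WT+NU6102, -1.10 and -1.04 in CDK2 KO and -2.63 and -2.55 in R50. It was likewise highest in CDK2 KO, 2.34-fold over WT (log2 fold change 1.23 ± 0.14, adjusted p = 0.00225), and lowest in WT+NU6102, where it fell by 1.04 ± 0.14 on the log2 scale (adjusted p = 0.00223). Within slide 1, R50 lay below CDK2 KO by log2 fold changes of -1.36 ± 0.11 for COL4A5 (adjusted p = 0.000692) and -1.51 ± 0.14 for COL4A6 (adjusted p = 0.000973). R50 against WT differed by 0.46 for COL4A5 (adjusted p = 0.0356) and by -0.29 for COL4A6 (adjusted p = 0.193). The probes lie at chrX:107940580-107940639 and chrX:107399050-107399109 of hg19. A second, dim COL4A6 probe at chrX:107512310-107512369 was above background on neither WT array and gave 0.83 in CDK2 KO (adjusted p = 0.228). In WT+NU6102 it was at 0.78 (adjusted p = 0.225), opposite in sign to the first probe. For R50 against CDK2 KO it gave -0.18 (adjusted p = 0.794). The COL4A6 fall with NU6102 by the first probe was -0.83 without WT+NU6102 replicate 1, -0.99 without WT replicate 1 and -0.91 with the median subtracted. With the mean of both COL4A6 probes it was -0.13, and R50 against CDK2 KO was at -0.85, neither of which was called.

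COL4A4, another chain of that network, read 0.23 and 0.16 in WT, -0.93 and -0.95 in WT+NU6102, 0.08 and 0.16 in CDK2 KO and 0.44 and 0.32 in R50. The treated WT cells were the lowest, at -1.14 ± 0.06 (adjusted p = 0.000187), and CDK2 KO differed from WT by -0.08 (adjusted p = 0.392). COL4A2 had log2 fold changes between -0.33 and -0.09 against WT, none of which passed the test. COL18A1, the source of endostatin, was at 0.50 in R50 (adjusted p = 0.00536), 0.26 in CDK2 KO and -0.31 in WT+NU6102.

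**Figure D4:**
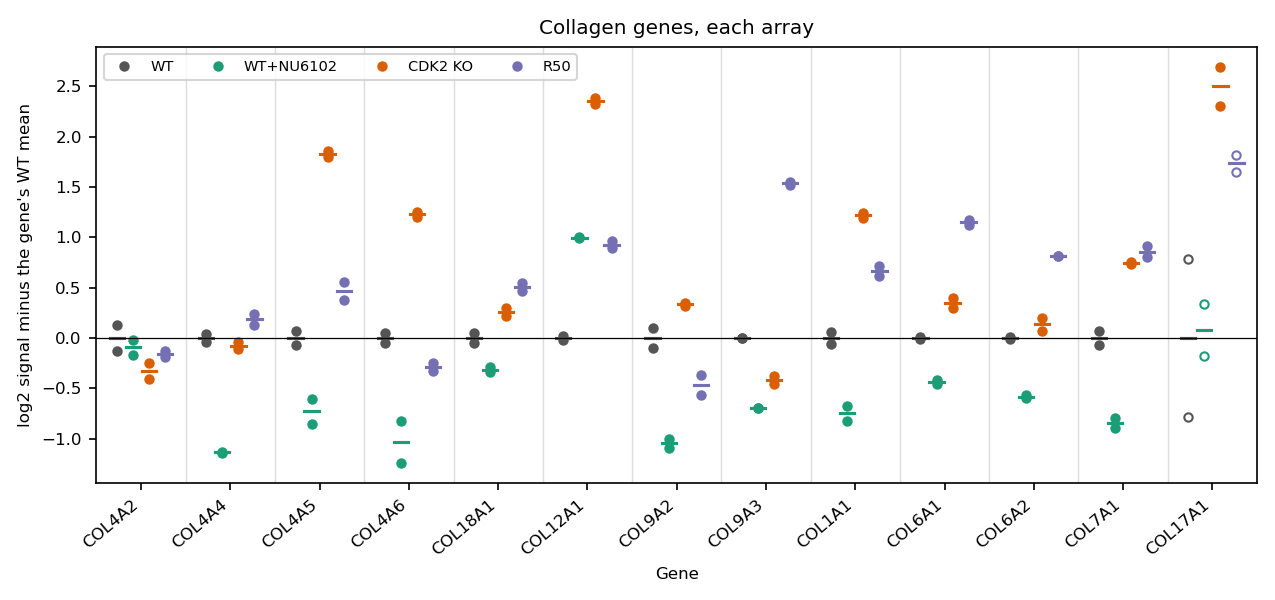
Log2 signal of each array minus the WT mean of the gene (vertical axis) for 13 collagen genes, each by its brightest tested probe. Dots are single arrays, bars are means of 2, and open dots mark groups in which neither array was well above background. COL4A5, COL4A6 and COL12A1 are highest in CDK2 KO, and COL9A3 and COL6A1 in R50.

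Among the collagens that decorate fibrils, COL12A1 had the largest rise in CDK2 KO of the genes above background on all 8 arrays. It read -0.48 and -0.43 in WT, 0.53 and 0.54 in WT+NU6102, 1.87 and 1.92 in CDK2 KO and 0.50 and 0.43 in R50. CDK2 KO stood above all, 5.11-fold over WT (log2 fold change 2.35 ± 0.05, adjusted p = 1.84e-05) and 2.69-fold over R50 on the same slide (adjusted p = 6.51e-05). WT+NU6102 and R50 lay close together (adjusted p = 0.312 for their difference) and above WT, at 0.995 ± 0.05 (adjusted p = 0.000168), just under the fold threshold, and 0.93 ± 0.05 (adjusted p = 0.000522). A second probe at chr6:75822928-75822987 gave 1.98, 0.69 and 0.72 in the same order of groups. COL9A3, a chain of cartilage collagen IX, read 2.75 and 2.75 in WT, 2.06 and 2.05 in WT+NU6102, 2.38 and 2.29 in CDK2 KO and 4.30 and 4.27 in R50. It was 2.90-fold higher in R50 than in WT (log2 fold change 1.53 ± 0.05, adjusted p = 0.000142) and 3.87-fold higher than in CDK2 KO. COL9A2, a chain of the same collagen, read -1.84 and -1.65 in WT, -2.84 and -2.75 in WT+NU6102, -1.43 and -1.39 in CDK2 KO and -2.11 and -2.31 in R50. It fell by 1.05 ± 0.10 on the log2 scale in WT+NU6102 (adjusted p = 0.000724), which became -0.95 without WT replicate 2, and R50 was at -0.47, opposite in sign to COL9A3.

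COL6A1, a chain of the beaded collagen VI, read 3.51 and 3.54 in WT, 3.07 and 3.11 in WT+NU6102, 3.82 and 3.92 in CDK2 KO and 4.64 and 4.70 in R50. R50 was highest at 2.22-fold over WT (log2 fold change 1.15 ± 0.06, adjusted p = 0.00039). COL6A2, its partner chain, was at 0.81 ± 0.06 in R50 (adjusted p = 0.00098) and -0.58 in WT+NU6102, and its second probe gave 0.38 (adjusted p = 0.0478) and -0.59. COL7A1, which makes the anchoring fibrils under the epidermis, was at 0.86 in R50 and 0.74 in CDK2 KO, both below the fold threshold, and at -0.84 in WT+NU6102. COL1A1, the main fibrillar chain, read -2.93 and -2.81 in WT, -3.69 and -3.54 in WT+NU6102, -1.68 and -1.63 in CDK2 KO and -2.25 and -2.16 in R50. CDK2 KO was the highest group, with a rise of 1.22 ± 0.08 (adjusted p = 0.000376). ACTA2, the other fibroblast marker measured on all arrays, had means of -1.41 in WT, -1.92 in WT+NU6102, -0.71 in CDK2 KO and -0.75 in R50.

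COL11A2, a minor fibrillar chain, was called higher in R50 by 1 of 3 probes, at 1.22 ± 0.145 (adjusted p = 0.00495). A probe that shares 22 bases with it gave 0.68 (adjusted p = 0.0501) and the brightest, on another part of the gene, 0.19 (adjusted p = 0.548). COL17A1, the hemidesmosomal collagen, was above background on the 2 CDK2 KO arrays only, at -3.64 and -4.02, which made it at least 2.19-fold higher than in WT (adjusted p = 0.0165). Without either of these arrays it was no longer called (adjusted p = 0.0793 and 0.0581). COL24A1 was above background on both WT arrays, at -3.91 and -3.99, and on neither WT+NU6102 array, at least 1.85-fold lower (adjusted p = 0.0254). Without WT replicate 1, WT replicate 2 or WT+NU6102 replicate 2 it was not called, with adjusted p between 0.07 and 0.0986. Bounds of this kind set the dim group at the higher of its own signal and the lowest signal well above background on each array.

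Of the laminin receptors, ITGB4, the hemidesmosome beta chain, read 4.39 and 4.51 in WT, 4.34 and 4.34 in WT+NU6102, 4.98 and 5.01 in CDK2 KO and 5.57 and 5.56 in R50. R50 was above CDK2 KO and both above WT, and the rise over WT was 2.16-fold in R50 (log2 fold change 1.11 ± 0.05, adjusted p = 0.000394) and 0.55 on the log2 scale in CDK2 KO (adjusted p = 0.00159). ITGA6, which pairs with it, read 0.49 and 0.42 in WT, 0.48 and 0.36 in WT+NU6102, 0.18 and 0.22 in CDK2 KO and 1.07 and 0.96 in R50. R50 was the highest and CDK2 KO the lowest group, at 0.56 ± 0.07 (adjusted p = 0.00524) and -0.25 ± 0.07 (adjusted p = 0.0384) against WT, both below the fold threshold, and the second ITGA6 probe gave 0.53 and -0.25. ITGA3, the alpha chain that binds laminin-332 with ITGB1, was at 0.61 ± 0.05 in R50 (adjusted p = 0.00179), with log2 fold changes of -0.04 in CDK2 KO and -0.03 in WT+NU6102. ITGA7 stood apart in WT+NU6102, at -0.80 ± 0.05 (adjusted p = 0.000198), and was at 0.01 in CDK2 KO and 0.12 in R50.

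Of the collagen receptors, ITGA1 was near background throughout. It read -6.70 and -6.27 in WT, -5.31 and -5.68 in WT+NU6102, -4.63 and -4.41 in CDK2 KO and -4.58 and -4.17 in R50, and only the CDK2 KO arrays and 1 R50 array were well above background. CDK2 KO was at least 1.36-fold higher than WT (adjusted p = 0.00238) and R50 at least 1.5-fold higher (adjusted p = 0.00356). ITGA2, the other epithelial collagen receptor, was at 1.32 ± 0.37 in R50 (adjusted p = 0.0556) and 0.83 ± 0.37 in CDK2 KO (adjusted p = 0.148), and its arrays varied widely within groups. It was called in R50 against WT+NU6102, at 1.85 (adjusted p = 0.0081). ITGA10, another collagen-binding alpha chain, was at -0.87 ± 0.08 in CDK2 KO (adjusted p = 0.0014), below the fold threshold. Their partner ITGB1 was at 0.35 in R50 (adjusted p = 0.0321), 0.41 in WT+NU6102 and 0.21 in CDK2 KO.

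Apart from ITGA1, which was near background, the largest integrin changes against WT were in 2 beta chains. ITGB8, which with ITGAV releases TGF-beta from its latent form, read -2.68 and -2.80 in WT, -5.34 and -5.85 in WT+NU6102, -5.35 and -5.04 in CDK2 KO and -2.73 and -2.72 in R50. It was well above background on all WT and R50 arrays and on none of the other 4, so that it was at least 4.3-fold lower than WT in WT+NU6102 (adjusted p = 0.000289) and at least 5.26-fold lower in CDK2 KO (adjusted p = 0.000648). R50 and WT differed by 0.01 ± 0.19, while within slide 1 R50 was at least 5.31-fold higher than CDK2 KO (adjusted p = 0.000556). The ITGB8 probe is at chr7:20455137-20455196 of hg19. ITGB7, which pairs with ITGA4 or ITGAE and is known from gut-homing lymphocytes, read -2.24 and -2.33 in WT, -2.49 and -2.37 in WT+NU6102, -2.03 and -2.03 in CDK2 KO and -0.34 and -0.26 in R50. Both R50 arrays lay far above the rest, 3.97-fold over WT (log2 fold change 1.99 ± 0.06, adjusted p = 0.000142) and 3.32-fold over CDK2 KO (adjusted p = 6.98e-05). ITGAE was at -0.02 in R50 (adjusted p = 0.764), and ITGA4 was on no array well above background. The leukocyte markers PTPRC, CD14 and ITGB2 were at 0.30, 0.29 and 0.15 in R50 against WT, none of which passed the test, and CD68 was at -1.58. For ITGB2 this is its brightest probe, the only one tested.

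The fibronectin and vitronectin receptors had log2 fold changes below the fold threshold. ITGAV had log2 fold changes of 0.28 in WT+NU6102 (adjusted p = 0.00607), 0.05 in CDK2 KO and 0.03 in R50, and ITGA5 of -0.23, -0.32 and -0.01 in the same order. ITGB5, the ITGAV partner, was at 0.33 in WT+NU6102 (adjusted p = 0.00494), -0.14 in CDK2 KO and 0.26 in R50. ITGB3 and ITGB6, which also pair with ITGAV, were not detected.

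**Figure D5:**
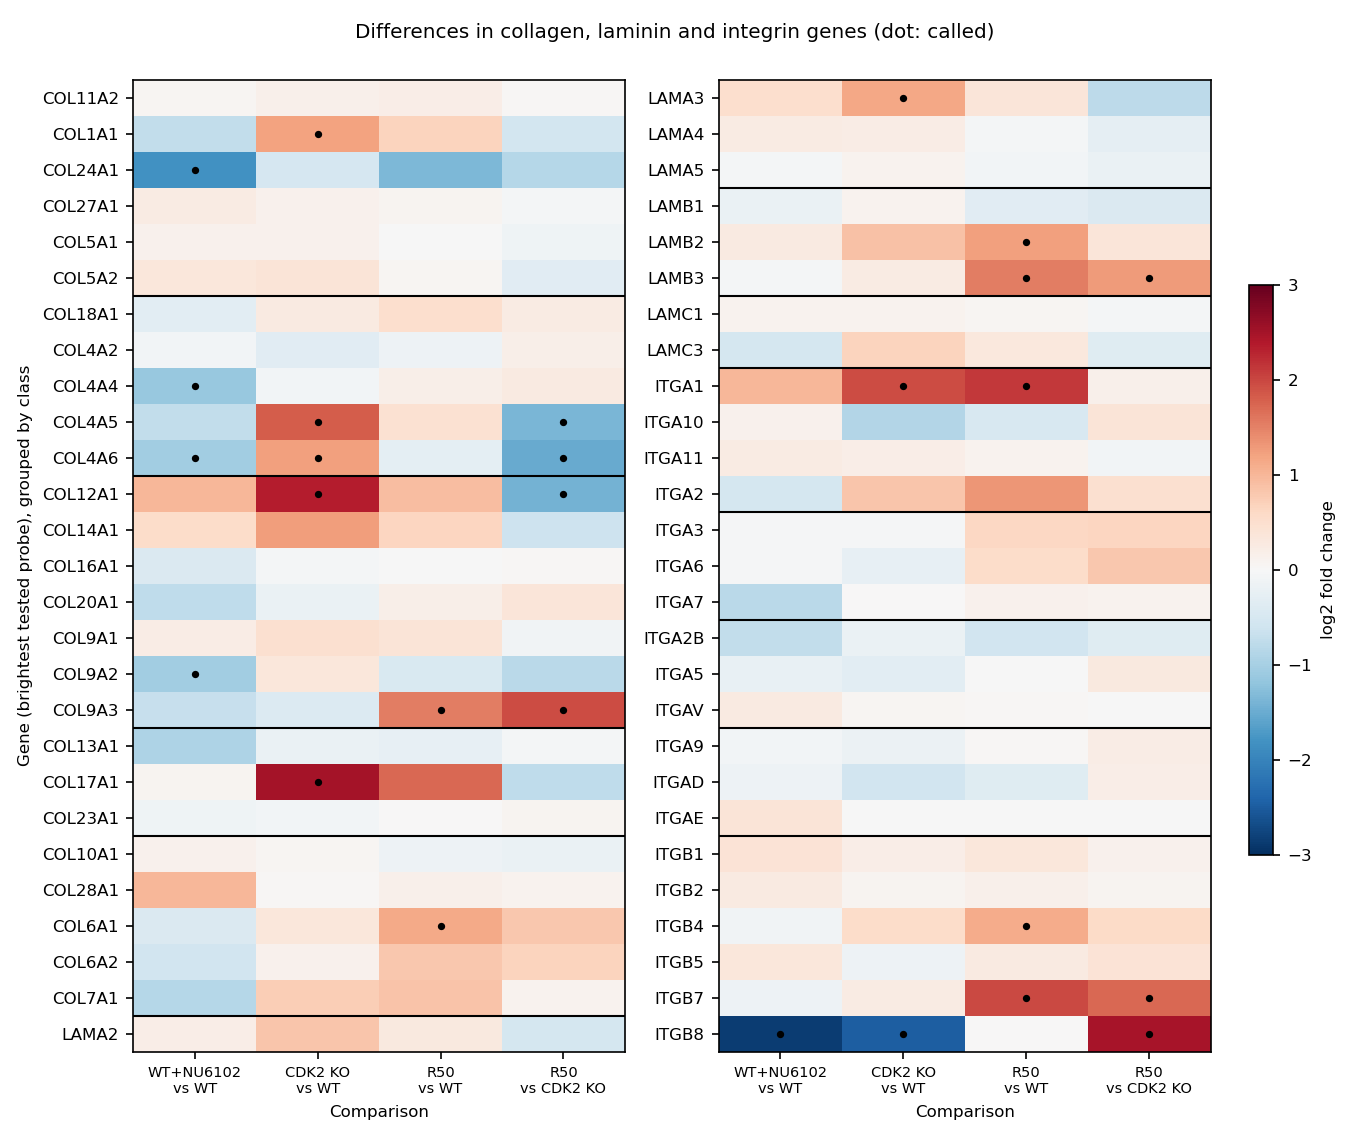
Log2 fold change (colour, from -3 in blue to 3 in red) of 54 tested collagen, laminin and integrin chains, by their brightest probe and grouped by class, in 4 comparisons. Dots mark calls, which are 7 higher in R50 against WT, 7 higher and 1 lower in CDK2 KO, and 5 lower in WT+NU6102.

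R50 against WT+NU6102 gave the most calls, also over all tested probes, of which 7.61% were called higher and 3.26% lower. Several genes, such as COL9A3, COL6A1, COL7A1 and COL1A1, lay below WT after 24 h of NU6102 and above it in R50. Others did not: ITGB8 was at 0.01 in R50 against WT, and LAMB3 (-0.05) and ITGB7 (-0.14) did not pass the test in WT+NU6102. By brightest probe 15 genes were called higher and 0 lower, among them ITGB8 (at least 4.34-fold), COL9A3 (log2 fold change 2.23), ITGB7 (2.13), ITGA2 (1.85), COL7A1 (1.70), COL6A1 (1.58), LAMB3 (1.57), the pseudogene LAMB2P1 (1.53) and COL1A1 (1.41). COL17A1, at 1.65 with adjusted p = 0.0397 and above background in neither group, was not called with any 1 of the 6 CDK2 KO, R50 and WT+NU6102 arrays left out, at adjusted p between 0.0626 and 0.154. COL27A1 was called higher by 1 probe only, at 1.01, and its brightest probe was at -0.17. These cells differed in dose, duration, selection and slide at once, which cannot be told apart here.

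The other genes of the pathway were taken from 4 lists and read by their brightest probes. Of all tested probes, 1.27% were called higher and 5.22% lower in WT+NU6102, 2.44% and 2.3% in CDK2 KO and 1.64% and 0.952% in R50. Of 25 tested genes for collagen folding and crosslinking, 2 were called lower in CDK2 KO and 2 higher in R50, and 1 was higher and 2 lower in WT+NU6102. LOXL4, a lysyl oxidase that crosslinks collagen, was at least 1.83-fold lower in WT+NU6102 and 6.28-fold higher in R50 than in WT (adjusted p = 0.000611). LEPREL1, a prolyl hydroxylase of collagen IV, was at -1.85 in CDK2 KO (adjusted p = 0.00352), and FKBP10, a collagen chaperone, at -1.53 (adjusted p = 0.000135).

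Of 15 tested basement membrane and matricellular partners, 5 were lower in WT+NU6102, 2 higher and 2 lower in CDK2 KO and 2 higher in R50. Their median log2 fold change was -0.84 in WT+NU6102, -0.13 in CDK2 KO and 0.29 in R50, where all probes had 0.03, 0.01 and -0.04, and the medians of the other 3 lists lay between -0.16 and 0.17. SPARC, which binds collagen and aids its deposition, read 3.53 and 3.86 in WT, 2.53 and 2.46 in WT+NU6102, -4.40 and -3.85 in CDK2 KO and 5.26 and 5.09 in R50. It was lowest by far in CDK2 KO, at -7.82 ± 0.21 (adjusted p = 2.87e-05), and highest in R50, at 1.48 (adjusted p = 0.00783). CTGF, a matricellular protein, was at least 5.12-fold lower in CDK2 KO (adjusted p = 0.000855) and at -1.50 in WT+NU6102, and NTN4, a netrin that caps laminin networks, was at least 3.7-fold lower in WT+NU6102 (adjusted p = 0.000257). PXDN, the peroxidase that makes the sulfilimine bonds of collagen IV, rose in CDK2 KO, by 1.51 ± 0.07 (adjusted p = 0.00012), and in R50, by 1.25 (adjusted p = 0.000446).

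Of 15 tested proteases and inhibitors, 2 were lower in WT+NU6102, 1 higher and 2 lower in CDK2 KO and 1 lower in R50. TIMP3, a matrix-bound protease inhibitor, was well above background on the 2 CDK2 KO arrays only and was at least 5.76-fold higher there than in WT (adjusted p = 4.22e-05). MMP7, matrilysin, was at -1.88 in WT+NU6102 and -1.33 in R50 (adjusted p = 0.001). Of 33 tested adhesome genes and other matrix receptors, 3 were lower in WT+NU6102, 0 were called in CDK2 KO and 3 were higher in R50. BCAM, a receptor for laminin alpha-5, was at least 2.57-fold lower in WT+NU6102 (adjusted p = 0.000549) and rose by 1.40 ± 0.12 in R50 (adjusted p = 0.00175). TNS3, a tensin that links integrins to actin, rose in R50 by 1.20 (adjusted p = 0.00453) and fell by 1.11 in WT+NU6102, and LIMS2, a partner of integrin-linked kinase, was at -1.57 there (adjusted p = 0.000285).

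Background correction by normexp with an offset of 50 ended several calls. In CDK2 KO against WT it left COL12A1 (both probes) and COL4A5 called and took COL1A1 to 0.83, COL4A6 to 0.94, LAMA3 to 0.93, ITGB8 to -0.98, ITGA1 to 0.43 and COL17A1 to 0.61. In R50 against WT it ended the calls of ITGA1 and COL11A2 and left those of LAMB2, LAMB3, 3 LAMA4 probes, ITGB4, ITGB7, COL6A1 and COL9A3. In WT+NU6102 against WT it left COL4A4 and ITGB8. Among the partner genes followed, it took CTGF to -0.63, NTN4 to -0.84, LOXL4 to -0.62 and MMP7 to -0.90 there. Against WT it took CTGF to -0.89 and LEPREL1 to -0.94 in CDK2 KO, and BCAM to 0.84 and MMP7 to -0.56 in R50. It left called LIMS2 in WT+NU6102, SPARC, TIMP3 and FKBP10 in CDK2 KO, and LOXL4, PXDN and SPARC in R50. The other partner calls named above, such as the fall of BCAM, were not followed.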

How the data were processed

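RNA of 8 HCT-116 samples, 2 in each of 4 groups given by the labels, was hybridized to one-colour Agilent 60-mer arrays. The authors scanned them with Agilent Feature Extraction 11.5.1.1 (submitters' processing notes), and the deposited signal intensity is their background-subtracted processed signal. They also deposited a table of log2 values made in GeneSpring, which matched the scanner values within 0.1 for 99.84% of entries after centring each probe on its median. Its direction and scale were thereby settled and its centring is per probe, as far as these values show, with array medians between -0.02 and 0.02. Each array held 58717 non-control spots, of which 32376 to 36206 were well above background and 0 saturated, and the number of arrays limits precision.

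Here the signal was taken as log2 and each array's 75th percentile was subtracted. Outlier spots were left out, spots of a probe were averaged, and a probe was tested where some group had it well above background on its 2 arrays, with 31 probes left out for want of usable spots. The 4 groups were fitted together in limma 3.58.1 (R 4.3.3, two-sided, Benjamini-Hochberg over 28677 probes), and the script was tested on simulated data. Plots were drawn with matplotlib 3.10.9.

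A gene stands for its tested probe of highest mean, and other probes are named where they differ. Named with values were up to 10 called genes per comparison, the chains of type IV collagen, laminin-332, laminin-511 and laminin-521, of which 1 gene is not reported here, 12 integrin chains, and up to 5 called partner genes per comparison. A few further genes were named after their values were seen, among them LAMA2, LAMC3, COL18A1, COL28A1, COL6A2, COL7A1, ITGA7, ITGA10, ITGAE and the epithelial and leukocyte markers. The members, lists and tests were chosen with earlier results of these data known. Probe positions are those of the deposited files (hg19), and promoters come from the RefSeq table on GRCh38.p14. The alternatives were normexp, quantile and median scaling, other filters and thresholds, the authors' log2 values, a trended prior, the mean of a gene's probes, a replicate block, 1 slide alone, and each array left out.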

Additional observations from a re-analysis of the deposited data

How the results depend on the processing

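Normexp correction left 2 of the 7 calls in WT+NU6102 against WT, 3 of the 9 in CDK2 KO against WT and 14 of the 22 in R50 against WT+NU6102, and whether the correction or its offset of 50 did so was not tested. Requiring a probe well above background on all arrays left 4 calls in WT+NU6102. Without a minimum fold change the calls were 43 in WT+NU6102, 31 in CDK2 KO, 36 in R50, 38 in R50 against CDK2 KO and 44 in R50 against WT+NU6102. The F-test count of 35 became 9 with no filter on dim probes and 16 by the methods' ANOVA, and the cause was not tested. Leaving out 1 array at a time gave counts of 6 to 8 in WT+NU6102, 8 to 10 in CDK2 KO, 12 to 14 in R50, 11 to 13 in R50 against CDK2 KO, 19 to 23 in R50 against WT+NU6102 and 9 to 17 by the F-test. For none of the alternative settings in this report was the share of all tested probes called computed. Those counts therefore do not set the members apart from all probes. COL27A1 in R50 against WT+NU6102 turned to -0.16 with the mean of its probes, and 7 other calls were lost that way. Gene by gene, 86 calls were followed, those of the members and of up to 5 partner genes per comparison. Normexp ended 31 of these 86 calls, quantile and median scaling each ended 5, and the authors' values and a trended prior ended 0. Signal over background limits ITGA1, COL17A1, COL24A1 and ITGB8, whose dim groups give bounds.

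The replicate numbers did not pair the arrays, since deviations of arrays with the same number correlated at -0.028 to 0.0452 between groups. With a replicate block the counts were 7, 9, 13, 11 and 22 in the 5 comparisons in the order above, and 16 by the F-test. The block added ITGA2 in R50 against WT, at 1.32, and in R50 against WT+NU6102 it added COL27A1 by its dimmest probe, at -1.33, and ended the call of COL17A1.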
